A study of Mus musculus with 2 samples.

Results

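Nr2f1 and Nr2f2 encode the COUP transcription factors, and the p300 peaks of 2 windows of the mouse genome (build mm9) that hold these genes are described here. The window for Nr2f1 runs from 77.7 to 79.0 Mb of chromosome 13, and the window for Nr2f2 from 76.8 to 78.4 Mb of chromosome 7. A deposited peak was taken when its midpoint lay in a window, which gave 23 of the 6383 listed peaks. The Nr2f1 window held 12 of the 2786 midbrain peaks and 0 of the 3597 heart peaks. The Nr2f2 window held 10 midbrain peaks and 1 heart peak.

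COUP-TFI (Nr2f1) and COUP-TFII (Nr2f2) are orphan members of the nuclear receptor family that bind DNA at direct repeats of a hexamer and often act as repressors. Nr2f1 is known for its role in the patterning of the neocortex, in neuronal migration and in the inner ear. Nr2f2 is known for venous identity of endothelial cells and for atrial identity in the developing heart, and it is also used in the nervous system. p300 acetylates histones as a coactivator of transcription, and its peaks are commonly used to list candidate enhancers.

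The study mapped p300 by chromatin immunoprecipitation and sequencing in embryos of the outbred strain CD-1 at embryonic day 11.5. There was 1 heart library and 1 midbrain library, each from tissue of about 150 embryos of both sexes that had been combined, and the same antibody against p300 was used for both. The shared protocol describes the isolation of midbrain but does not name heart, so the sources used here do not say how the hearts were dissected. Whole tissue was used, so a difference in how many cells of a type were present and a difference in binding per cell cannot be told apart. No mm9 gene positions were used, so the labelled tissues were not checked against peaks near their marker genes, and no peak is assigned to a gene.

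The midbrain library, with 5869671 aligned reads, was 4.50 times as deep as the heart library, with 1303861. Reads are given as counts and as rpm, the usual unit of reads scaled to all aligned reads of their library. A single heart read equals 0.767 rpm and a single midbrain read 0.170 rpm. For a count of 0 a floor of 3 reads was set, 2.30 rpm for heart and 0.511 rpm for midbrain. The exact Poisson 95% upper limit for 0 heart reads is higher, at 2.83 rpm. Since each tissue had 1 library, there was no replicate check and no test between tissues, and each statement about a tissue is about its library. Ratios carry exact conditional binomial 95% intervals and densities exact Poisson 95% intervals. These cover counting error only, since amplified reads that carry no molecular identifiers do not stand for independent molecules.

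RefSeq annotates 2 promoters for Nr2f1 and 1 for Nr2f2, all on the minus strand of build GRCm38.p6, which is another build than that of the peaks. They are printed because these are the starts of the genes that the windows are named for. Each runs from 250 bases before to 50 bases after the start, 5′ to 3′ on the strand of the gene, with E-box matches (CANNTG) in capitals. Positions were not converted between the 2 builds, so whether a p300 peak covers these bases was not determined.
Nr2f1 promoter 1, chr13:78198824-78199123 (GRCm38.p6): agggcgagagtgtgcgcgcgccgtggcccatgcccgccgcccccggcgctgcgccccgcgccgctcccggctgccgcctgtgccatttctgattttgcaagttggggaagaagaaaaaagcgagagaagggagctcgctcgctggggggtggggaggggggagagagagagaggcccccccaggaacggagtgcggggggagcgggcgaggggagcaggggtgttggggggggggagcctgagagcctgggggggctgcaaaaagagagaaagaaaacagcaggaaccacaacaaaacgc
Nr2f1 promoter 2, chr13:78196400-78196699 (GRCm38.p6): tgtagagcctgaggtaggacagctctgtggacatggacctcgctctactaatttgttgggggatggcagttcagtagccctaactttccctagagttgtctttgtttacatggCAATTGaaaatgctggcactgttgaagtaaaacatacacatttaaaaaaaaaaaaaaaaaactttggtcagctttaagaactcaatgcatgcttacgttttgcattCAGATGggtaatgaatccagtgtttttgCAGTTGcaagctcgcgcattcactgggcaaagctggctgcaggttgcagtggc
Nr2f2 promoter, chr7:70366697-70366996 (GRCm38.p6): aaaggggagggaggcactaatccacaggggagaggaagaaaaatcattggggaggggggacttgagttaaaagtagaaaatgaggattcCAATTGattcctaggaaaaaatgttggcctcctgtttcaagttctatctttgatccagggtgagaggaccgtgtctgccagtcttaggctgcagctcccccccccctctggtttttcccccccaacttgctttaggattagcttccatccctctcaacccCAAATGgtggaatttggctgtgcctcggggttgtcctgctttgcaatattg
The G and C content was 68% and 43% in the Nr2f1 promoters and 49.7% in the Nr2f2 promoter, against a median of 52.7% over 32851 RefSeq promoters of the same length. The E-box, searched like every motif on both strands, occurred 0 and 3 times in the Nr2f1 promoters and 2 times in the Nr2f2 promoter, and 72.3% of all promoters hold it. None of the 3 promoters held the hexamer AGGTCA (16.3% of all promoters) or its direct repeat with 1 base between the copies (0.0396%), nor the GATA motif AGATAA (11.2%), the Sox motif ACAAT (31.0%), the homeodomain motif TAATTA (5.29%) or the MEF2 motif (0.557%). The hexamer is part of the direct repeat, and a match of letters is a description and not a binding site.

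In the same RefSeq annotation the nearest protein-coding neighbours of Nr2f1 are Pou5f2 and Arrdc3, and those of Nr2f2 are Arrdc4 and Gm44812. Long non-coding RNA genes are annotated next to both, 3110006O06Rik and A830082K12Rik beside Nr2f1 and Gm35325 and B130024G19Rik beside Nr2f2. The peaks are described by position and are tied to none of these genes.

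Both windows were rich in midbrain peaks. The Nr2f1 window held 9.23 midbrain peaks per Mb, 8.53 times the mean of 1975 windows of 1.3 Mb tiled over the genome. Only 14 of these tiles (0.709%) held as many midbrain peaks or more. The Nr2f2 window held 6.25 midbrain peaks per Mb, 5.83 times the mean of 1618 tiles of 1.6 Mb, and 29 tiles (1.79%) held as many or more. Heart peaks were not dense in either. The Nr2f1 window had 0, like 42.6% of its tiles, and the Nr2f2 window had 1, while 61.9% of its tiles had at least 1. The loci were chosen with earlier results of these data known, so their place among the tiles is a description.

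**Figure D1:**
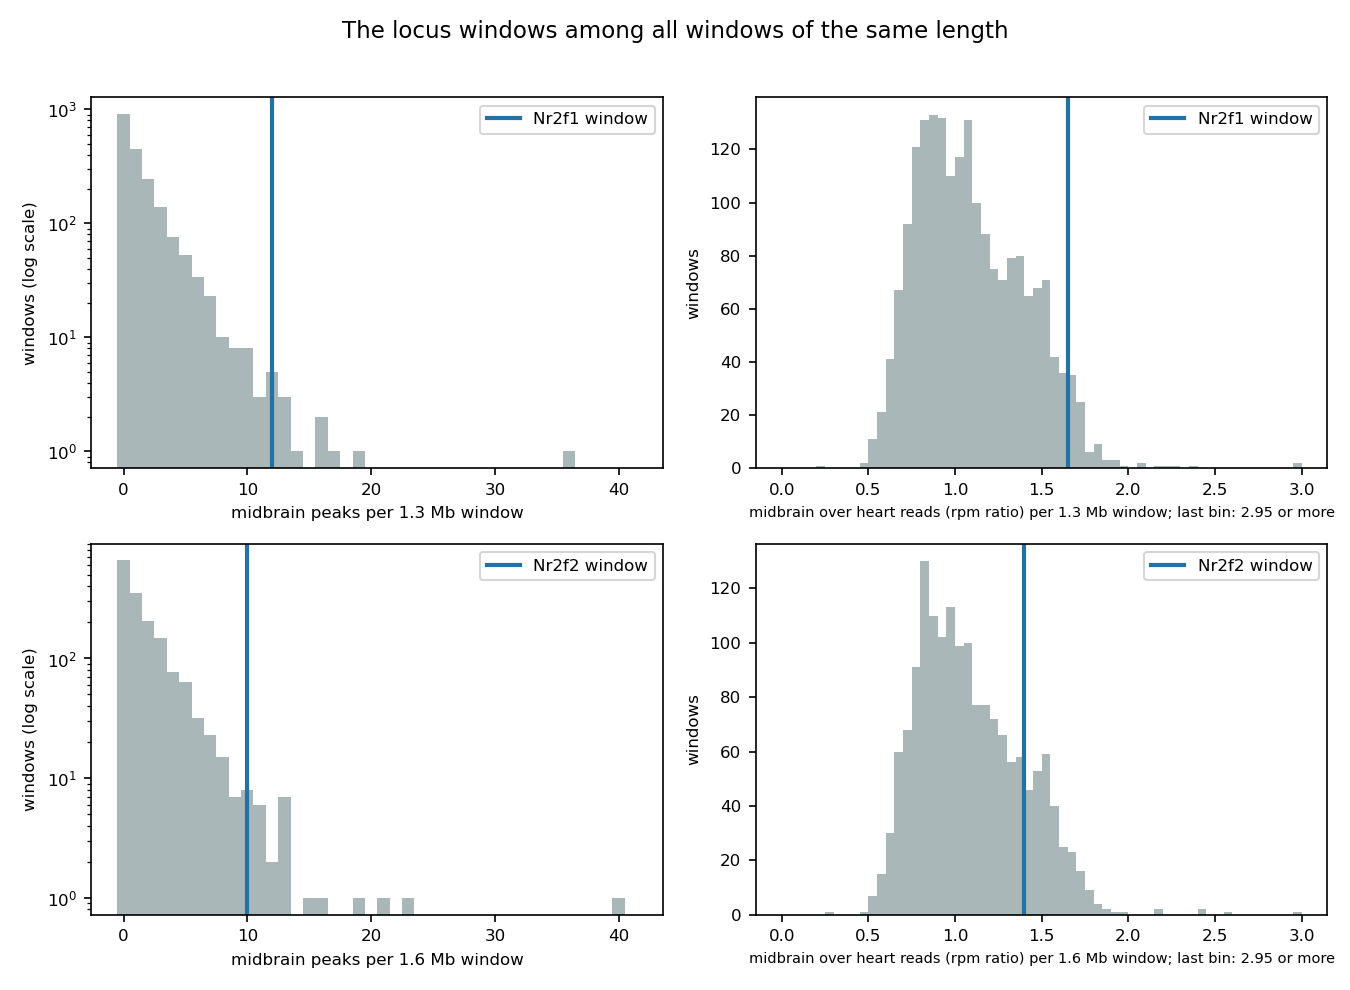
Number of midbrain peaks (left, log scale on the vertical axis) and the ratio of midbrain to heart rpm (right) in genome tiles as long as the Nr2f1 window (top) and the Nr2f2 window (bottom), with the locus window as a vertical line. The lines at 12 and 10 midbrain peaks lie far out in the tail on the left, while those at ratios of 1.65 and 1.40 lie in the upper part of the main distribution on the right.

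Over the whole Nr2f1 window, the heart library had 482 reads (370 rpm) and the midbrain library 3583 reads (610 rpm). The midbrain over heart ratio was 1.65 (interval 1.50 to 1.82), and 4.56% of the tiles had as high a ratio or higher. Outside all listed peaks it was 1.57 (interval 1.42 to 1.73), so it stayed above 1 without the peaks. Outside their own listed peaks 7.65% of the tiles reached this value, with a median of 1.06. Tiles without a listed peak of either library were among them, so such a ratio is not particular to windows with midbrain peaks. Over the Nr2f2 window the heart library had 846 reads (649 rpm) and the midbrain library 5317 reads (906 rpm), a ratio of 1.40 (interval 1.30 to 1.50) that 17.7% of the tiles reached. Outside listed peaks this ratio was 1.37 (interval 1.28 to 1.48), which 19.4% of the tiles reached, with a median of 1.05. The median tile had a ratio of 1.05 at the Nr2f1 length and 1.04 at the Nr2f2 length, so both windows stood on the midbrain side of the median.

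The library totals of the windows placed them differently among the tiles. In midbrain reads the Nr2f1 window stood above 89.3% of the tiles and the Nr2f2 window above 99.7%. In heart reads the Nr2f1 window stood above 26.6% of its tiles, and the Nr2f2 window above 53.0%. The high ratio of the Nr2f1 window thus went with a midbrain level in the upper part and a heart level in the lower part of the tiles.

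**Figure D2:**
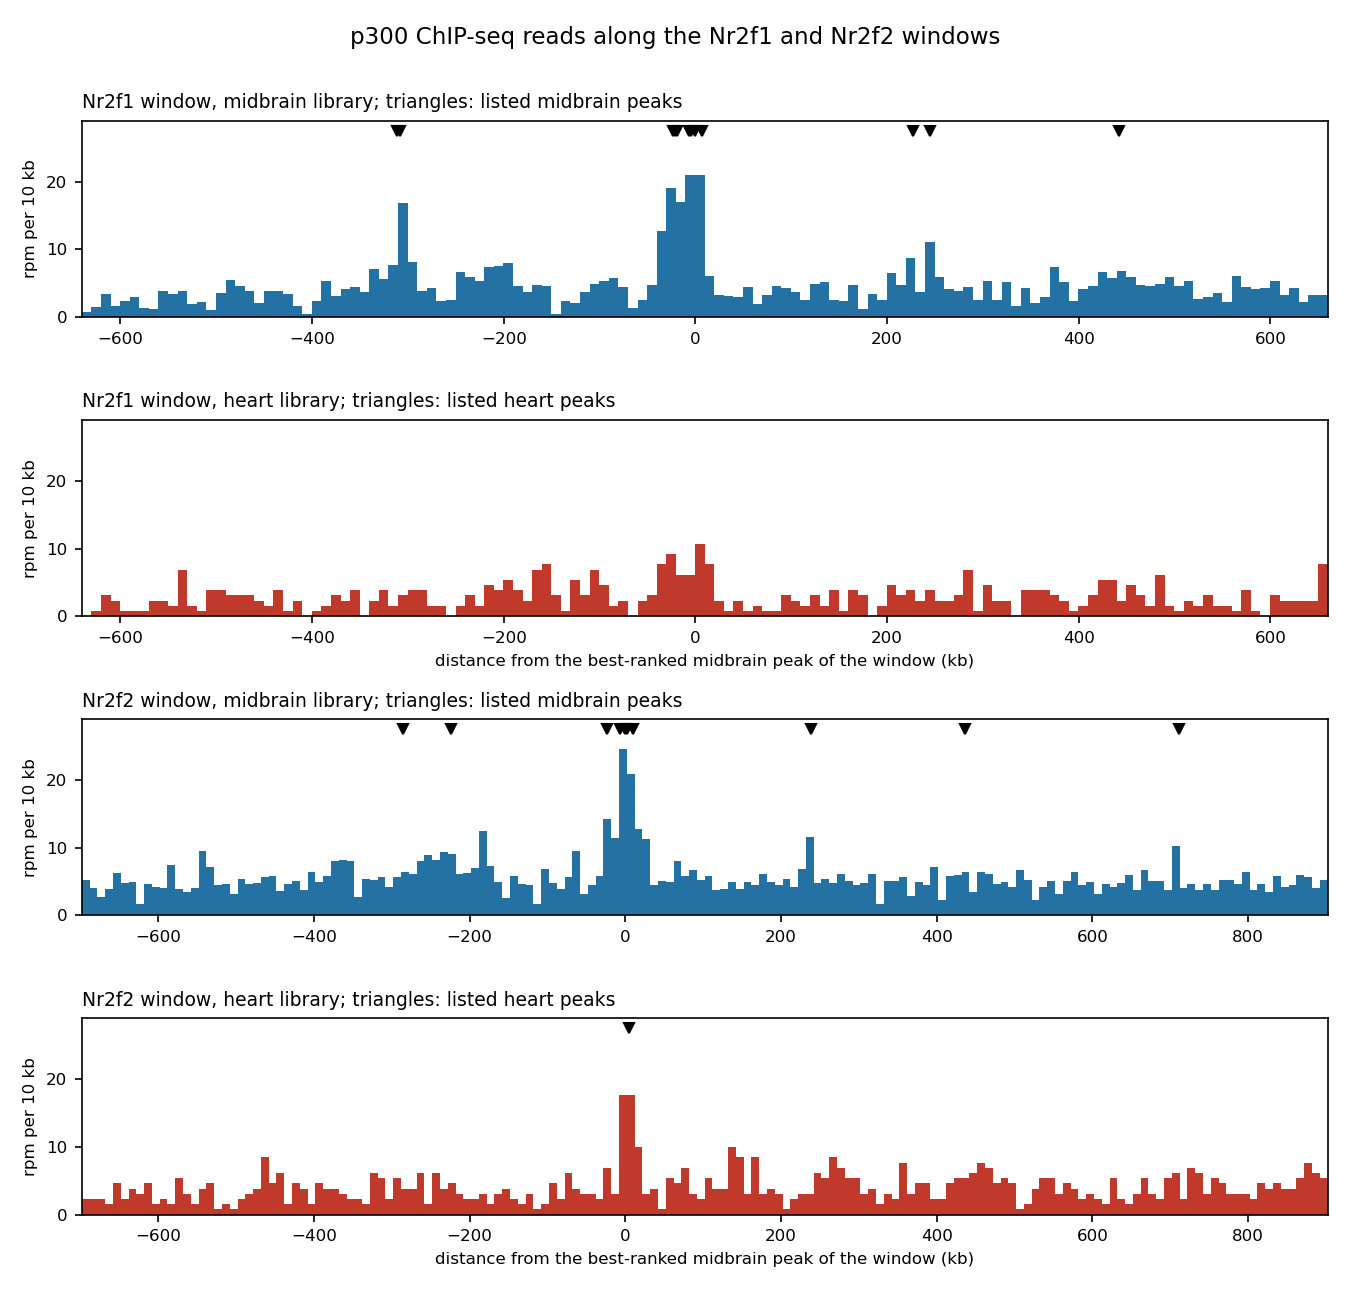
Library-scaled reads (rpm) in bins of 10 kb along each window, for the midbrain library (blue) and the heart library (red), against distance in kb from the best-ranked midbrain peak of the window. Triangles mark the listed peaks of that library. Midbrain reads rise to 20.96 rpm at Nr2f1 and 24.5 rpm at Nr2f2 around position 0, where heart reads reach 10.7 and 17.6 rpm.

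In each window a single short stretch held at least as many midbrain peaks as all the rest of the window. At Nr2f1, 7 of the 12 midbrain peaks (58.3%) lay in chr13:78316336-78347983, a run of 31.6 kb that is 2.43% of the window. At Nr2f2, 5 of the 10 midbrain peaks and the heart peak lay in chr7:77473687-77508194, a run of 34.5 kb that is 2.16% of the window. A run joins midbrain peaks whose midpoints lie within 50 kb of the next, and these are called the central runs here. The other Nr2f1 peaks formed a pair 284 kb before the run, a pair 219 kb after it and a lone peak a further 196 kb on. The other 5 Nr2f2 peaks stood alone, at 61.0 to 275 kb from the run or peak before them or after them. A midbrain neighbour within 50 kb was present for 11 of 12 Nr2f1 peaks and 5 of 10 Nr2f2 peaks, against 43.0% of the midbrain list.

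The 10 kb bins with the most midbrain reads lay in the central runs. The highest had 20.96 rpm at Nr2f1 and 24.5 rpm at Nr2f2, levels reached by 0.0332% and 0.0206% of the 253027 genome bins with reads, whose median was 3.92 rpm. In the heart library the highest bin of the Nr2f1 window had 10.7 rpm, reached by 3.19% of the genome bins. The highest of the Nr2f2 window had 17.6 rpm in 2 bins, reached by 0.366%. The median genome bin of the heart library had 3.07 rpm.

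Peak by peak, the best-ranked midbrain peak of the Nr2f1 window was chr13:78340038-78340668 (rank 189, where rank 1 is the best). It held 26 midbrain reads (4.43 rpm) and 1 heart read (0.767 rpm), and its deposited coverage reached 16 overlapping midbrain reads, the highest of the 12. The midbrain library was higher at this peak by a ratio of 5.78, but the interval of 0.949 to 237 includes 1. The heart library held too few reads for a firmer value.

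The peaks with intervals above 1 were 2 others. At chr13:78031433-78032463 (rank 311), in the pair before the run, there were 30 midbrain reads (5.11 rpm) and 1 heart read, a ratio of 6.66 (interval 1.11 to 272). At chr13:78332754-78333989 (rank 540), in the run, there were 28 midbrain reads (4.77 rpm) and 1 heart read, a ratio of 6.22 (interval 1.03 to 254). Both lower bounds lie just above 1, so the sizes of the ratios are known only within wide limits. They also lie below 1.63, the ratio outside listed peaks beyond 200 kb from the run. Neither peak was thus separated from the outer part of its window.

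The Nr2f1 peak with the most midbrain reads was chr13:78335109-78336665 (rank 500), with 33 midbrain reads (5.62 rpm) and 2 heart reads (1.53 rpm) over 1557 bp. Its ratio was 3.67 (interval 0.937 to 31.5). At the end of the run, chr13:78346900-78347983 (rank 816) held 24 midbrain reads (4.09 rpm) and 1 heart read, a ratio of 5.33 (interval 0.869 to 219). The midbrain library was thus higher by its point value at both, with intervals that include 1.

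Of the remaining best-ranked peaks, 3 held 0 heart reads. At chr13:78566594-78567325 (rank 1011) there were 18 midbrain reads (3.07 rpm), and the lower bound of the ratio was 0.977. At chr13:78316336-78316967 (rank 1362), the first peak of the run, and at chr13:78028886-78029603 (rank 1393) there were 16 midbrain reads each (2.73 rpm), with a lower bound of 0.857. These bounds lie below 1, so the counts do not separate the libraries at the 3 peaks. The other 4 midbrain peaks of the window, ranks 1478 to 2719, held 10 to 15 midbrain reads and 0 to 2 heart reads.

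At Nr2f2 the best-ranked midbrain peak, chr7:77496195-77499945 (rank 140), was also the widest of both windows at 3751 bp, and only 4 of the 2786 midbrain peaks were as wide, itself included. It held 76 midbrain reads (12.9 rpm) and 9 heart reads (6.90 rpm), the highest count of either library at any of the 23 peaks. The ratio was 1.88 (interval 0.938 to 4.26). Cut into 5 equal stretches, it held 17, 15, 14, 16 and 14 midbrain reads and 2, 4, 0, 0 and 3 heart reads, so the midbrain reads were spread along its length. Its midbrain coverage had a mean of 6.03 and a highest value of 9, below the 16 of the narrower best-ranked Nr2f1 peak.

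Next in rank at Nr2f2, chr7:77491288-77492127 (rank 1103), also in the run, held 19 midbrain reads (3.24 rpm) and 3 heart reads (2.30 rpm), a ratio of 1.41 (interval 0.414 to 7.42). At chr7:77274215-77275215 (rank 1107), outside the run, there were 21 midbrain reads (3.58 rpm) and 1 heart read, a ratio of 4.66 (interval 0.750 to 193). These counts do not separate the libraries at either peak.

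The Nr2f2 midbrain peak whose interval lay above 1 was the first of the run, chr7:77473687-77474667 (rank 1429). It held 19 midbrain reads (3.24 rpm) and 0 heart reads, with a lower bound of the ratio of 1.04. This bound lies below 1.32, the ratio outside listed peaks beyond 200 kb from that run, so this peak was not separated from it either. Among the other named Nr2f2 midbrain peaks, ranks 1168 (chr7:77736345-77736988), 1512 (chr7:77212690-77213244), 1721 (chr7:77507191-77508194) and 1872 (chr7:77500533-77501094) held 16, 14, 17 and 13 midbrain reads in that order, and 1 heart read each. Ranks 1935 and 2559 held 15 and 11 midbrain reads and 1 and 0 heart reads.

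**Figure D3:**
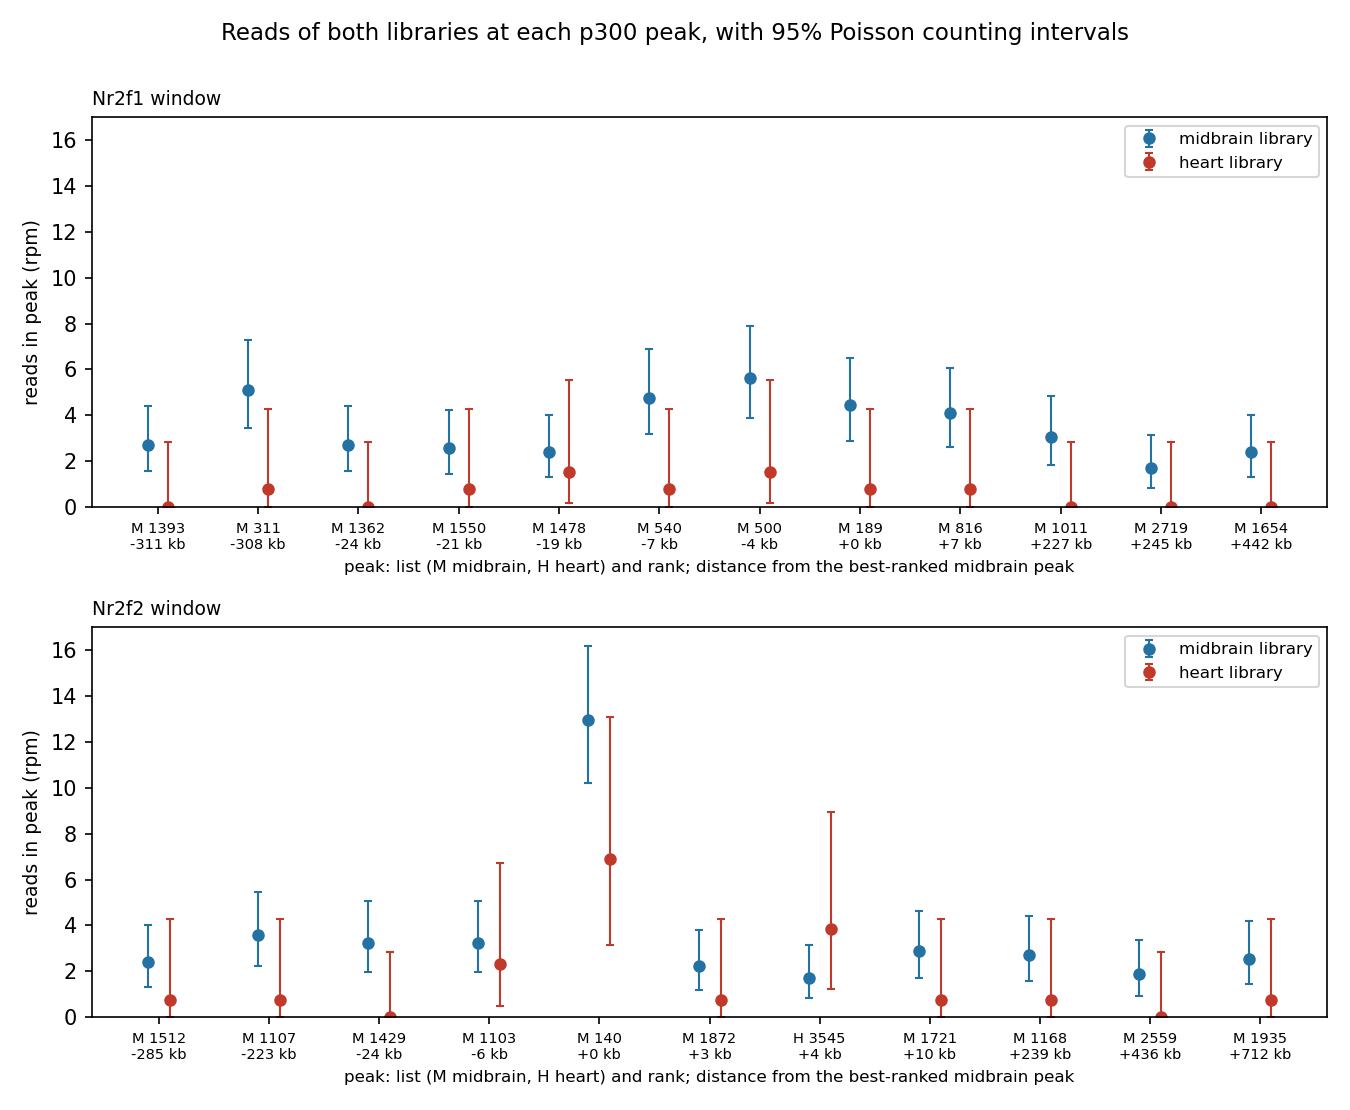
Library-scaled reads (rpm) of the midbrain library (blue) and the heart library (red) at each of the 23 peaks in genome order, with exact 95% Poisson intervals, for Nr2f1 (top) and Nr2f2 (bottom). Labels give the list (M midbrain, H heart), the rank and the distance in kb from the best-ranked midbrain peak. Midbrain points lie above heart points at all 22 midbrain peaks, while the intervals of the libraries overlap at all of them, and the heart point is the higher at the heart peak alone.

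Midbrain peaks were listed from midbrain reads, so the midbrain excess at them follows in part from how they were chosen and is given as a description. The point ratio was above 1 at 12 of 12 Nr2f1 and 10 of 10 Nr2f2 midbrain peaks, as at 2608 of the 2786 listed. A ratio of at least 2 with an interval above 1 was reached by 2 Nr2f1 peaks and 1 Nr2f2 peak, 13.6% of the 22, against 21.5% of the midbrain list. A ratio of at least 2, with a count of 0 taken as the floor of 3 reads, was reached by 6 Nr2f1 and 6 Nr2f2 peaks, 54.5% of the 22, against 41.5% of the list. By this second rule a peak with 0 heart reads can miss the fold where a like peak with 1 heart read reaches it. Heart reads were 0 at 5 of 12 Nr2f1 and 2 of 10 Nr2f2 peaks, against 40.7% of the list. With so few peaks these shares are not read as a difference from the list.

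Pooled over its 12 midbrain peaks, Nr2f1 had 244 midbrain reads and 9 heart reads, so that midbrain exceeded heart by a ratio of 6.02 (interval 3.12 to 13.3). Pooled over 10 peaks, Nr2f2 had 221 midbrain reads and 18 heart reads, a ratio of 2.73 (interval 1.69 to 4.69), or 3.58 (interval 1.83 to 7.98) without the widest peak, which holds 9 of the 18 heart reads. The whole midbrain list had a ratio of 3.39 (interval 3.28 to 3.51), which lies inside both loci's intervals. The intervals of the loci overlap, and a difference between them was not detectable at this depth.

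The single heart peak, chr7:77501923-77502714, lay within the Nr2f2 central run but overlapped no midbrain peak. It had rank 3545 of 3597, with 5 heart reads (3.83 rpm) and 10 midbrain reads (1.70 rpm), which made the heart the higher library by 2.25 (interval 0.604 to 7.23). A heart ratio of at least 2 with an interval above 1 was reached by 90.0% of the heart list but not by this peak, and a ratio of at least 2 by 97.8% of the list and by this peak. It began 828 bp after the midbrain peak of rank 1872 and ended 4476 bp before that of rank 1721. The 6.10 kb between these midbrain peaks held 18 heart reads (13.8 rpm) and 59 midbrain reads (10.1 rpm), and midbrain over heart gave 0.728 (interval 0.424 to 1.31). The libraries were thus not distinguishable by counting error across this gap either. No peak of either window overlapped a peak of the other list, while 155 midbrain and 154 heart peaks did so in the genome.

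To measure each library against its own background, reads in peaks were set against those 5 to 10 kb away on each side. Heart reads are not known to have chosen the midbrain peaks, but the peak caller and any control are not given. Heart density there is free of that choice only if midbrain reads alone made the list. At Nr2f1 midbrain peaks heart reads were 1.36 times as dense as in the flanks (interval 0.590 to 2.76), which was not distinguishable from the flanks. At Nr2f2 they were 1.95 times as dense (interval 1.10 to 3.30), against 2.34 times (interval 2.26 to 2.42) over the midbrain list. The Nr2f2 value rests on the widest peak. Without it the enrichment was 1.48 (interval 0.651 to 2.97), and with a fixed span of 1000 bp at each peak it was 1.49 (interval 0.778 to 2.64). The flanks of the central-run peaks held 0.708 heart rpm per kb at Nr2f1 and 0.972 at Nr2f2. Flanks of the other midbrain peaks held 0.317 and 0.445. These enrichments thus compare peaks with nearby bases and not with the outer window.

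In midbrain reads, which did choose the peaks, both loci stood lower against their flanks than the list as a whole. The enrichment was 3.80 at Nr2f1 (interval 3.26 to 4.43) and 3.50 at Nr2f2 (interval 2.98 to 4.10), against 7.14 (interval 7.07 to 7.22) over the list. The densities within peaks were similar, at 4.14, 3.57 and 4.16 rpm per kb in that order. The flanks differed, with 1.09 rpm per kb at Nr2f1, 1.02 at Nr2f2 and 0.583 over the list. At 8 of 12 Nr2f1 and 7 of 10 Nr2f2 peaks the flanks held more midbrain reads than the third quartile of the list, 39 reads, against 24.9% of all midbrain peaks. Every peak of the central runs was among them. Flanks within a run overlap and in part hold other listed peaks, so the same reads count for several peaks.

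Enrichment was lower in the central runs than outside them. It ran from 1.42 to 3.65 at the 12 midbrain peaks of the central runs and from 4.28 to 9.70 at the 10 others, and these ranges do not overlap. Reads per kb within the peaks did overlap, from 16.9 to 41.2 in the runs and from 19.4 to 29.1 elsewhere. With the bases of listed peaks taken out of the flanks, the enrichment in the runs was 2.19 to 5.19, which overlaps the other peaks. Pooled, it was 2.58 in the Nr2f1 run and 6.87 outside it, and 2.18 in the Nr2f2 run and 6.34 outside it. In the whole midbrain list the enrichment was 3.62 at the 223 peaks in runs of at least 5. It was 8.39 at the 1589 peaks with no neighbour within 50 kb. With listed peaks taken out these were 4.60 and 8.40, so the same order held over the list.

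**Figure D4:**
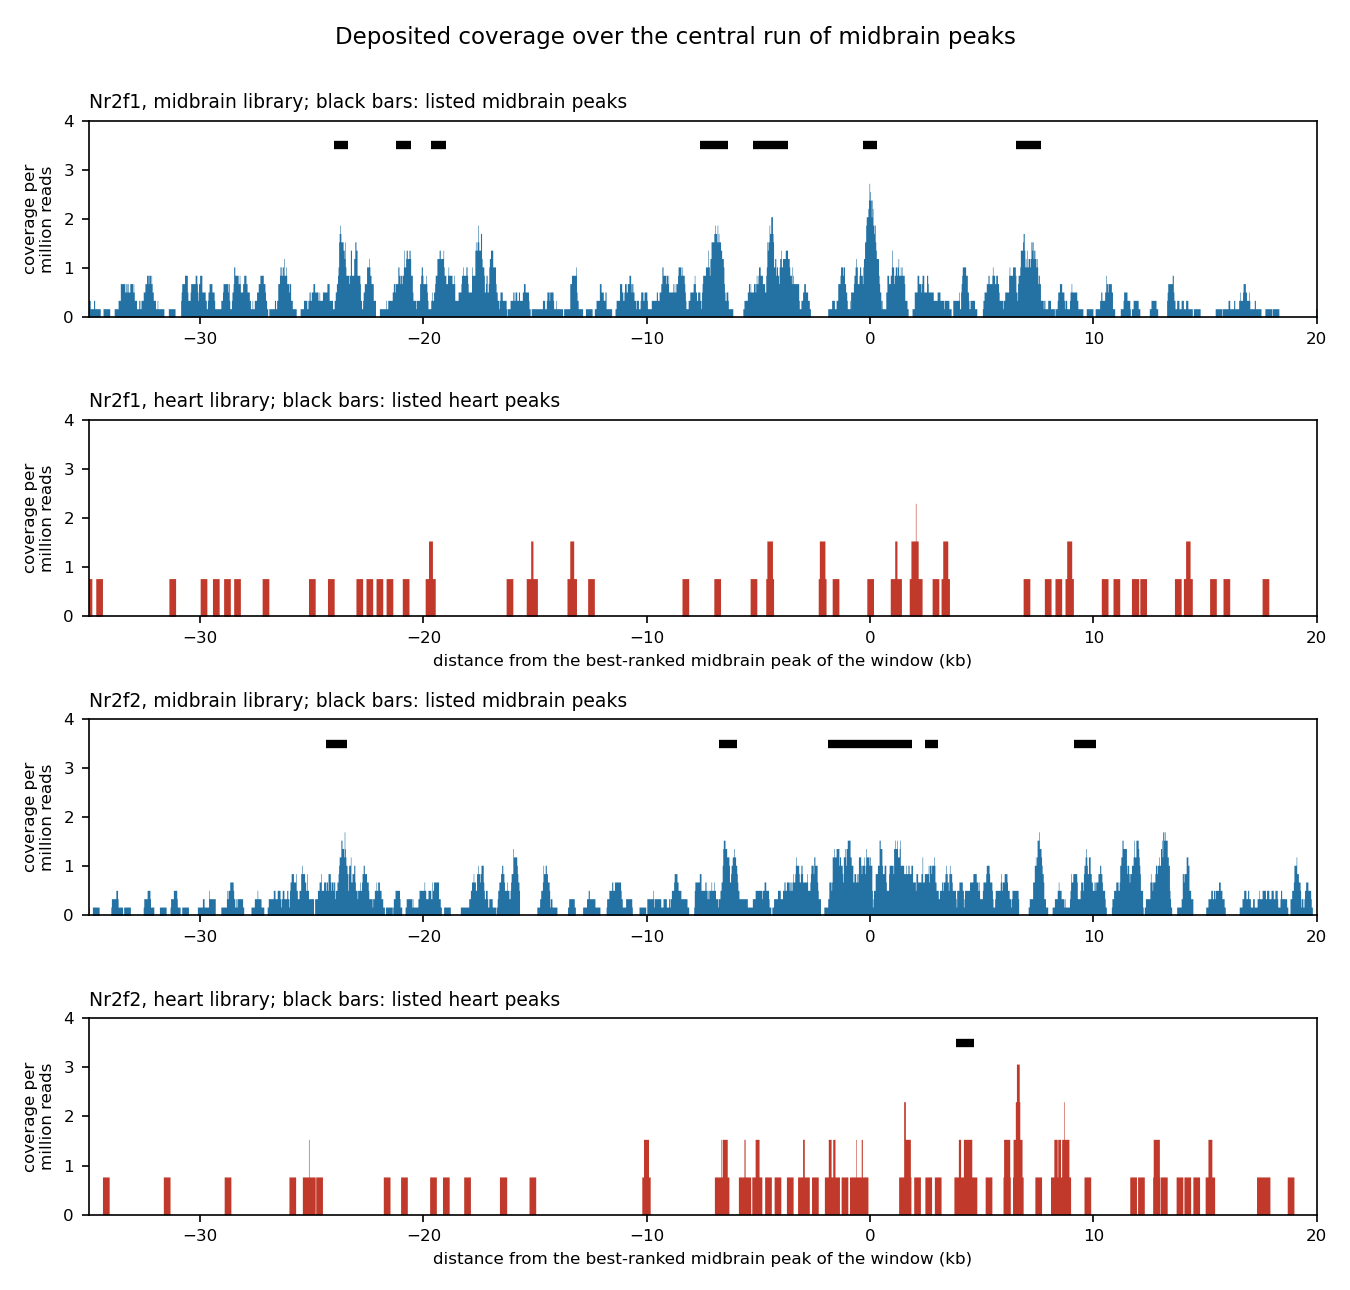
Deposited coverage at 25 bp steps, scaled to library size as for rpm, over the central runs against distance in kb from the best-ranked midbrain peak, for midbrain (blue) and heart (red), with listed peaks of that library as black bars. Midbrain coverage is above 0 over most of both runs and is highest, at 2.73, at the best-ranked Nr2f1 peak, while it reaches 1.70 at Nr2f2. Heart coverage reaches 2.30 at Nr2f1 and 3.07 at Nr2f2, and a single heart read makes a step of 0.767.

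Reads between the peaks of the central runs were then compared with those farther out, with listed peaks removed throughout. These reads chose no peak, although the limits of the runs come from the midbrain list. At Nr2f1 the midbrain density was 1.57 rpm per kb between the peaks of the run, 0.535 within 50 kb outside it, 0.414 from 50 to 200 kb and 0.407 beyond. The density between the peaks was 3.86 times that beyond 200 kb (interval 3.36 to 4.43). Heart reads fell off in the same order, from 0.701 rpm per kb to 0.368, 0.307 and 0.250, with 2.80 times the outer density between the peaks (interval 1.75 to 4.29). The heart library thus had an excess over the outer window, resting on 23 reads, in a stretch with no listed heart peak. No control library was used, so whether the excess at either locus is p300 binding or general background was not tested.

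At Nr2f2 the midbrain density was 1.34 rpm per kb between the peaks of the run, then 0.743, 0.544 and 0.511 in the same zones, and 2.62 times higher between the peaks than beyond 200 kb (interval 2.27 to 3.02). The heart density was 1.01 rpm per kb between the peaks and 0.406, 0.375 and 0.388 outside, a ratio of 2.60 (interval 1.79 to 3.66). The heart excess was therefore about as large as the midbrain excess here. Between the peaks the midbrain over heart ratio was 2.24 at Nr2f1 (interval 1.46 to 3.61), above 1, and 1.33 at Nr2f2 (interval 0.924 to 1.96), where the interval includes 1. Beyond 200 kb the ratio was 1.63 at Nr2f1 (interval 1.43 to 1.85) and 1.32 at Nr2f2 (interval 1.20 to 1.44). At each locus these intervals overlap, so the run was not separated from the outer window in this ratio. Removing a further 500 bp on each side of every peak left the excess at 3.90 and 2.61 for midbrain and 3.18 and 2.68 for heart reads at Nr2f1 and Nr2f2, so the excess was about as large without the bases next to the peaks.

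**Figure D5:**
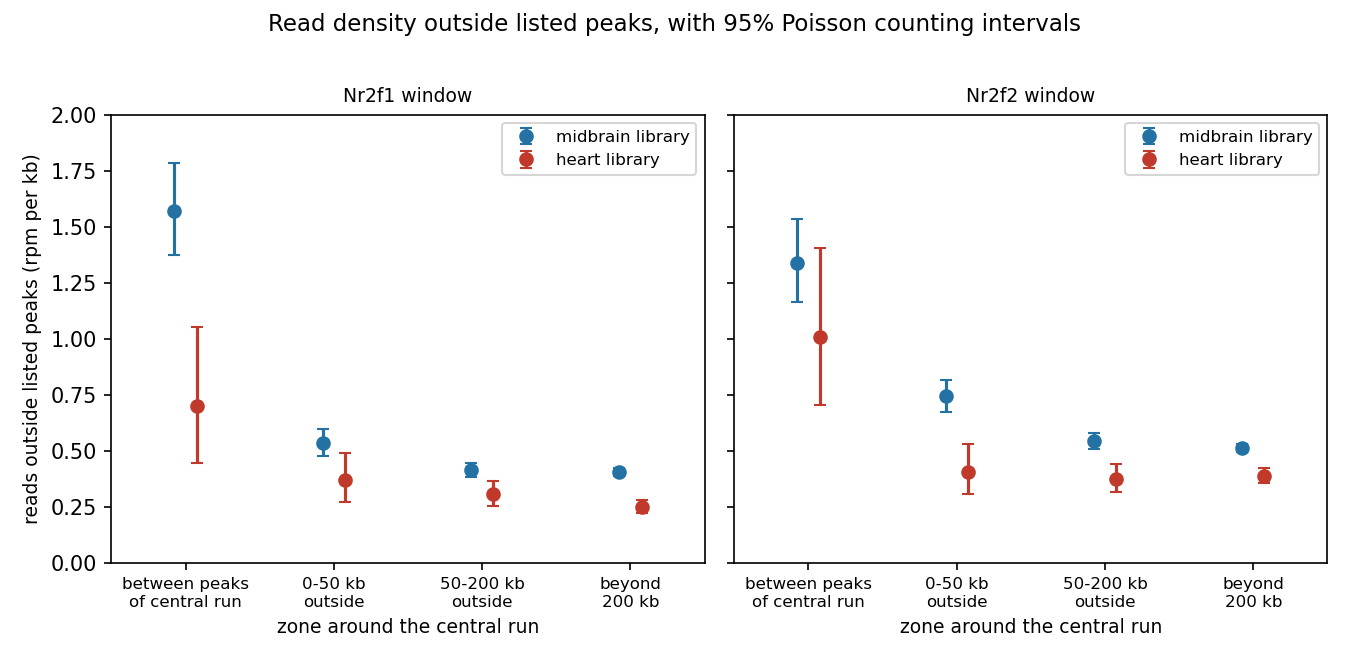
Read density outside listed peaks, in rpm per kb with exact 95% Poisson intervals, in 4 zones from the central run outward, for midbrain (blue) and heart (red) at Nr2f1 (left) and Nr2f2 (right). Both libraries are highest between the peaks of the run, and the midbrain and heart intervals there are apart at Nr2f1 and overlap at Nr2f2. Beyond 200 kb the midbrain and heart intervals are apart at both loci.

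Other runs of midbrain peaks gave a scale for these values. The midbrain list had 34 runs of at least 5 peaks, and 26 of them held no heart peak. The midbrain density between peaks over that at 50 to 200 kb was 3.79 at Nr2f1, the 6th highest of the 34, and 2.46 at Nr2f2, the 13th, with a median of 1.79 and a range of 0.766 to 6.41. In heart reads the same measure was 2.29 at Nr2f1, the 6th highest, and 2.70 at Nr2f2, the 4th, with a median of 1.34. Both central runs were thus above the median run in both libraries.

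Some stretches of 1 kb without a listed peak held as many reads as some listed peaks, although the peaks differ in width. Among 1 kb bins that touch no listed peak, 6 of 1281 at Nr2f1 and 3 of 1579 at Nr2f2 held 15 or more midbrain reads. This level was chosen after the values were seen. The highest at Nr2f1, chr13:78322000-78322999 in the central run, held 21 midbrain reads (3.58 rpm) and 0 heart reads. The highest at Nr2f2, chr7:77509000-77509999, just past the central run, held 21 midbrain reads and 1 heart read. In the heart library the highest such bin was chr7:77504000-77504999, between the heart peak and the next midbrain peak, with 6 heart reads (4.60 rpm) and 7 midbrain reads. The listed heart peak beside it held 5 heart reads over 792 bp, or 6.31 reads per kb.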

How the data were processed

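Binding of p300 was measured in 1 heart and 1 midbrain library. The deposited aligned reads are counts of 1 read per line on build mm9, which the submitters' processing notes also name. The authors lengthened reads to 300 bp, and no position and strand was repeated in either library. The deposited coverage track holds signal (coverage) at 25 bp steps, not scaled to depth, per the file headers. Each deposited peak list gives a start, an end and a rank. Not given in the sources used here are the aligner, the peak caller with its thresholds, and any control.

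Reads were placed by moving the 5 prime end by 23 bp (heart) or 35 bp (midbrain), from strand offsets of 46 and 70 bp estimated in peaks by a search from 46 to 500 bp. The heart offset of 46 bp lies at the search limit and is poorly determined. The midbrain offset of 70 bp is also well below the 300 bp to which the authors lengthened reads. The library totals were 1303861 and 5869671 reads. All aligned reads of a library set its scale. Ratios have exact conditional binomial 95% intervals, also where a count was 0. A floor of 3 reads stood in for a count of 0 only in the floors in rpm and in the count of peaks with a ratio of at least 2. The interval computation was tested on simulated data. Flanks lay 5 to 10 kb from a peak, and runs joined midbrain peaks within 50 kb. In each window the 8 best-ranked peaks of each list, and any that overlapped the other list, were named by position. Other positions, and the peak with the most reads, were named after their values were seen.

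The members, windows, motifs and gene lists were chosen with earlier results of these data known. Related genes and tissue markers had been planned only for an annotation of build mm9 and are not analysed here, nor are peak sequences. The dense window chr13:77578001-77578500 lies outside the Nr2f1 window and was left out. Promoters and gene order came from RefSeq (GRCm38.p6). Alternatives covered read placement, scaling, the coverage track, peak boundaries, flanks, rank, joining of peaks, overlap and window limits. The tools were scipy 1.17.1, numpy 2.4.6, matplotlib 3.10.9 and pandas 2.3.3 under Python 3.11.15.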

Additional observations from a re-analysis of the deposited data

Results flagged for a closer look

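The dense window left out, chr13:77578001-77578500, lies 121.5 kb before the Nr2f1 window and overlaps no listed peak. It held 25 heart reads (19.2 rpm) and 102 midbrain reads (17.4 rpm), far above the floors set for a count of 0 in either library, 2.30 and 0.511 rpm. For comparison, the most reads in any stretch of 500 bp outside listed peaks within the Nr2f1 window were 3.07 rpm for heart and 3.41 rpm for midbrain. The dense window enters no value for the loci.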

How the results depend on the processing

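Of 149 recomputed values, 137 stayed within their counting interval or, for counts, near the first count, 12 moved beyond and 0 reversed. Some had little room to move, such as the Nr2f1 heart counts, which were 0 under every setting. The tally is therefore not a measure of robustness. Among the better-ranked 50% of the lists, midbrain peaks with a neighbour fell from 11 to 7 at Nr2f1 and from 5 to 2 at Nr2f2, Nr2f2 midbrain peaks from 10 to 4, and the Nr2f2 heart peak dropped out, so that its count and its density relative to the list were 0. The Nr2f2 midbrain enrichment was then 2.77 in place of 3.50. With 1000 bp at each peak the midbrain enrichment was 3.23 at Nr2f1 and 2.96 at Nr2f2. At Nr2f2 it was 4.23 with flanks 10 to 20 kb away and 4.15 with listed peaks taken out of the flanks. At the heart peak, flanks 10 to 20 kb away gave a heart enrichment of 9.71 in place of 3.01 and a midbrain enrichment of 1.90 in place of 0.986; the cause was not tested. Removing peaks widened by 500 bp, and leaving out the peak with the most midbrain reads, were chosen after seeing the data and moved no value that far. Depth limits the heart values: no midbrain peak but the widest held more than 3 heart reads. No paired analysis was possible because each tissue had 1 library.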
